A study of Homo sapiens with 6 samples.

Results

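The 26S proteasome is the large cytosolic and nuclear protease that degrades ubiquitin-tagged proteins, and its genes carry symbols that start with PSM. The genes described here were every listed symbol made of PSM, a letter from A to G and a digit. That rule found 45 symbols among the 11048 genes listed in each library. PSMC3IP, which names an interacting protein and not a subunit, was set apart, so 44 genes remained: 7 alpha and 8 beta subunits of the 20S core, 6 ATPases and 14 non-ATPase genes of the 19S particle, 5 activator or inhibitor genes and 4 chaperones of core assembly. All 44 were tested, with at least 173 reads each in every library. The rule used symbols and no measured value. The subunit genes PSMB8 and PSMB9 were not analysed here.

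The cells were MM1.S, a human multiple myeloma line of malignant plasma cells, which make and secrete large amounts of immunoglobulin. They were exposed for 6 h to 3 µM CCF642, to 3 µM of its analogue CCF642-34, or to the vehicle DMSO, with 2 libraries per group. Both compounds are inhibitors of the disulfide isomerase PDIA1, and all groups share the same line, medium and exposure time. No source used here says whether the libraries of a group came from separate cultures. Every p thus measures only the spread between these libraries, taken mostly from genes of like level together, and that spread may be technical.

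In the 26S proteasome a 20S barrel of alpha and beta rings does the cutting, and a 19S particle at its end binds ubiquitin chains, removes them and threads the unfolded substrate into the barrel. Plasma cells degrade many misfolded secretory proteins by this route, and myeloma is treated with drugs such as bortezomib that block the beta subunit PSMB5. When proteasome activity falls short, cells are known to raise proteasome genes together through the transcription factor NFE2L1, which binds antioxidant-response-type elements in their promoters.

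The values are CPM, the reads of a gene scaled to a common library total, rescaled with TMM factors (0.957 to 1.05) so that the typical gene has the same level in all libraries. The libraries held between 20567313 and 28459677 reads. Fold changes are differences of log2(CPM + 1), tested with limma over all 11048 genes, and a gene was called higher or lower at a Benjamini-Hochberg adjusted p under 0.05, two-sided. Of 11 plasma cell marker symbols 10 were listed, and the other was IGJ, an older symbol of the listed gene JCHAIN. The summed CPM of the 10 was 9492 and 9409 with DMSO, 7295 and 7372 with CCF642, and 8013 and 7932 with CCF642-34. Without JCHAIN, the joining chain of secreted antibody, lower with both compounds (log2 fold changes of -0.79 with CCF642-34 and -1.10 with CCF642), the sums were 5392 and 5309, 5433 and 5413, and 5644 and 5556. The markers were split, with 2 higher and 6 lower with CCF642-34 and 4 higher and 6 lower with CCF642. The shares of all genes higher and lower were 29.7% and 27.9% with CCF642-34, and 31.8% and 31.3% with CCF642. IRF4 and SLAMF7 rose with both compounds, and SDC1 and TNFRSF17 fell with both. None of 4 B cell or 4 myeloid markers was listed, CD3E, the 1 of 4 T cell markers listed, stayed between 2.11 and 3.33 CPM, and COL1A1, the 1 of 4 fibroblast markers listed, was 1.03 and 1.42 CPM with DMSO, 9.35 and 11.01 with CCF642 and 2.78 and 3.56 with CCF642-34. The part of these markers in the results was not tested. In bulk RNA, fewer cells of a type and less RNA per cell cannot be told apart.

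Proteasome mRNA was higher after either compound. The 44 genes together took 0.636 and 0.637% of the deposited CPM with DMSO, 0.688 and 0.669% with CCF642, and 0.747 and 0.747% with CCF642-34. The 3 groups did not overlap, and the libraries with CCF642-34 were the highest. With CCF642-34, 37 of the 44 genes were higher than DMSO, 2 were lower and 5 did not pass the threshold, where 29.7% of all genes were higher and 27.9% lower (57.6% in either direction). With CCF642, 28 were higher, 6 were lower and 10 did not pass, where 31.8% of all genes were higher and 31.3% lower (63.1% in either direction).

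The changes were small. With CCF642-34 they took in 34 of the 35 genes of the core and the 19S particle, all higher. With CCF642 they took in fewer, with 26 of the 35 higher and 1 lower. The median log2 fold change of the 44 genes was 0.33 with CCF642-34 and 0.23 with CCF642, beside 0.0067 and -0.0066 over all genes. None changed by as much as 2-fold, and the largest change was that of PSMD12, 1.71-fold with CCF642-34 and 1.79-fold with CCF642. With CCF642-34, 23 genes were called and at least 25% higher, where the share of all genes was 18.2%. With CCF642, 13 genes passed both limits, where the share was 21.7%, and 2 (PSMG3 and PSMG4) were called lower by the same factor, where it was 21.5%. Both CCF642-34 libraries lay above both DMSO libraries for 39 of the 44 genes, which held for 39.9% of all genes, and both CCF642 libraries did for 29, which held for 39.1%. For 6 of the 44 genes both CCF642 libraries lay below DMSO, which held for 40.3% of all genes.

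The scaling bears on these counts. Scaled by library size alone, the median over all genes moved to -0.078 with CCF642-34 and -0.13 with CCF642, and 31 proteasome genes were then higher and 5 lower with CCF642-34, and 20 higher and 11 lower with CCF642. The shares of all genes higher and lower were then 22.6% and 36.0% with CCF642-34, and 22.9% and 42.9% with CCF642. The genes' median was 0.24 and 0.094 on that scale. The calls lost on it were 6 of 39 with CCF642-34, those of PSMB2, PSMB10, PSMD1, PSMD2, PSMD9 and PSMG1, and 8 of 34 with CCF642, those of PSMA5, PSMA6, PSMB1, PSMB5, PSMB7, PSMD1, PSMD10 and PSMF1. Both comparisons use the same 2 DMSO libraries, so their values stand side by side here and their likeness is not a separate result.

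**Figure D1:**
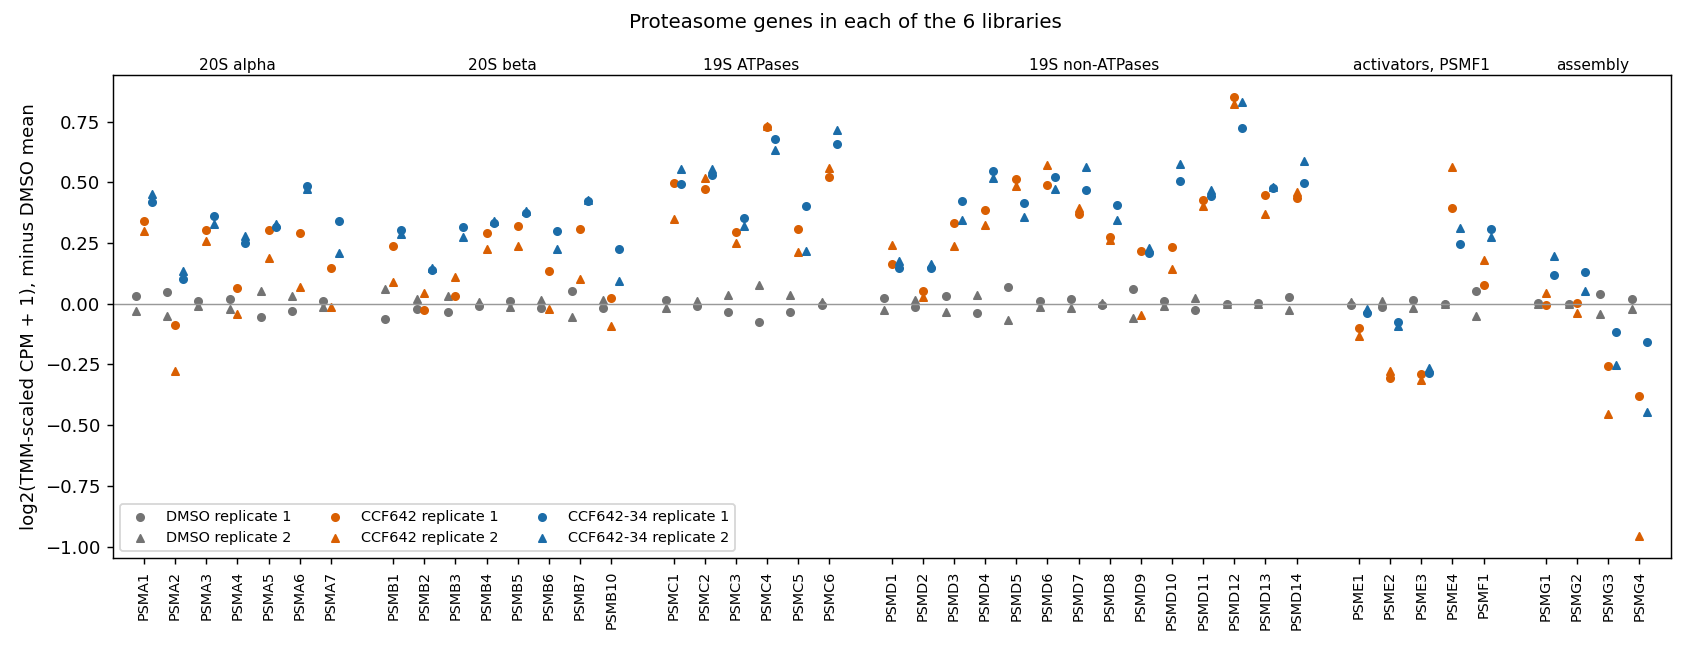
Each point is a gene's log2(TMM-scaled CPM + 1) in 1 library minus its mean over the 2 DMSO libraries, on the vertical axis, with the 44 genes ordered by their place in the proteasome on the horizontal axis. Grey, orange and blue mark DMSO, CCF642 and CCF642-34, and circles and triangles the 2 libraries of a group. The points of both compounds lie above the DMSO points for all 6 ATPases, and the lowest points are those of PSMG4.

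Promoters were read for sequence features that the choice of genes had not used. RefSeq promoters of GRCh38.p14, from 250 bases before to 50 after the start, were given for 38 of the 44 genes, as 46 promoters. PSMA7, PSMB1, PSMB6, PSMB7, PSMD4 and PSMG3 had no entry. The antioxidant response element core TGACNNNGC, searched on both strands, stood in 14 of the 46 promoters (30.4%), and in 13.3% of 35116 promoters of all genes. The box CCAAT stood in 18 of the 46 (39.1%) against 34.6% of all. TGAGNNNGC, which differs from the first motif in the fourth letter and was searched after the values had been seen, stood in 14 of the 46 (30.4%) against 18.3% of all. A match is only a run of letters and does not show that a factor binds.

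The matched elements are shown for 9 of the 14 genes with TGACNNNGC, with 16 bases on either side. They are on the strand of the gene, from its 5′ to its 3′ side, with the 9 matched letters in capitals. The first 5 belong to genes that were higher with both compounds, PSMA4 and PSMB3 to genes that were higher with CCF642-34, and PSME1 and PSME2 to genes that were lower with CCF642. In PSMC5 and PSME4 the match is on the other strand, so the capitals show its reverse complement.
PSMD12 (chr17:67366718-67366758, strand -): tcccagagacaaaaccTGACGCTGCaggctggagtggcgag
PSMD3 (chr17:39980754-39980794, strand +): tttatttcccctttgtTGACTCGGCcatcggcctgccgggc
PSMD5 (chr9:120843032-120843072, strand -): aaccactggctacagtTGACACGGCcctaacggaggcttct
PSMC5 (chr17:63827648-63827688, strand +): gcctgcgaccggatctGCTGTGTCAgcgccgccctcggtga
PSME4 (chr2:53971003-53971043, strand -): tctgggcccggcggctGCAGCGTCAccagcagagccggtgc
PSMA4 (chr15:78540644-78540684, strand +): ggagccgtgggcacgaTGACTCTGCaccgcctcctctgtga
PSMB3 (chr17:38752621-38752661, strand +): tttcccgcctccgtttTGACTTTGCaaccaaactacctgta
PSME1 (chr14:24136092-24136132, strand +): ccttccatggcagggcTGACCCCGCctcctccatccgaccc
PSME2 (chr14:24146761-24146801, strand -): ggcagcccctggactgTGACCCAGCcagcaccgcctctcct
The matches shown start between 34 and 175 bases before the start of the gene, so they keep no fixed distance. Among the genes not shown, the match of PSMG1 starts 183 bases before it. Those of PSMC4 and PSMD1 lie after it, at bases 28 and 40. The median fold change was smaller for genes with TGACNNNGC than for those without it, which did not hold for TGAGNNNGC. Neither difference was tested. The median log2 fold change of the 14 genes with TGACNNNGC was 0.27 with CCF642-34 and 0.14 with CCF642, and that of the 24 genes with a promoter but no match was 0.38 and 0.27. For TGAGNNNGC the medians were 0.34 and 0.28 in the 13 genes with it, and 0.34 and 0.19 in the 25 genes without it. TGACNNNGC was present in PSMD12, the gene with the largest increase, and also in PSME2, which was lower with CCF642.

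The alpha ring, whose subunits form the gate of the core, was higher in 6 of 7 genes with CCF642-34 and in 4 of 7 with CCF642, with medians of 0.32 and 0.18. PSMA6 had the largest increase with CCF642-34, from 72.1 and 75.2 CPM with DMSO to 103 and 103, with 90.4 and 77.3 under CCF642. The CCF642-34 libraries stood above the others, and the second CCF642 library lay only just above DMSO. The log2 fold change of PSMA6 was 0.48 ± 0.061 (SE, n = 2 libraries per group, limma adjusted p = 3.35e-09) with CCF642-34 and 0.18 ± 0.061 (adjusted p = 0.00898) with CCF642.

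PSMA1 was next, at 234 and 224 CPM with DMSO, 291 and 282 with CCF642 and 307 and 314 with CCF642-34, and its 3 groups did not overlap. Its log2 fold change was 0.44 with CCF642-34 (adjusted p = 2.23e-12) and 0.32 with CCF642 (adjusted p = 7.82e-09). PSMA2 stood apart from the ring. It read 142 and 133 CPM with DMSO, 129 and 113 with CCF642 and 147 and 151 with CCF642-34, so CCF642 gave the lowest values and CCF642-34 the highest. The value with CCF642, -0.18 on the log2 scale, was a decrease (adjusted p = 0.00285), and its value of 0.12 with CCF642-34 did not pass the threshold (adjusted p = 0.0559).

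PSMA3 and PSMA5 rose with both compounds, by 0.34 and 0.32 with CCF642-34. PSMA4 and PSMA7 rose with CCF642-34, by 0.26 and 0.28, and were at 0.012 and 0.065 with CCF642, where they did not pass the threshold (adjusted p = 0.84 and 0.249). With CCF642, the call of PSMA2 was lost without DMSO replicate 1 or CCF642 replicate 2, with log2 fold changes between -0.28 and -0.088 when 1 library was left out. That of PSMA6 was lost without DMSO replicate 1 or CCF642 replicate 1, with values between 0.068 and 0.29. PSMA2 and PSMA6 have 3 and 4 annotated pseudogene copies, and 12 of the 44 genes have at least 1, so reads may have been split between copies.

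All 8 beta genes rose with CCF642-34 (median 0.30) and 4 of 8 with CCF642 (median 0.12). PSMB5, PSMB6 and PSMB7 carry the chymotrypsin-like, caspase-like and trypsin-like cutting sites of the standard core. PSMB5 went from 31.99 and 31.4 CPM with DMSO to 39.8 and 37.6 with CCF642 and 41.3 and 41.6 with CCF642-34. Every treated library was above both DMSO libraries, and the compounds differed little. Its log2 fold change was 0.38 ± 0.076 with CCF642-34 (adjusted p = 3.56e-05) and 0.28 ± 0.076 with CCF642 (adjusted p = 0.00139). The value with CCF642 was 0.15 with library size alone and did not pass.

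PSMB7 was at 61.4 and 57.04 CPM with DMSO, 73.6 and 63.6 with CCF642 and 79.6 and 80.1 with CCF642-34. The CCF642-34 libraries were the highest and nearly equal, and the CCF642 libraries lay between them and DMSO. It rose by 0.43 with CCF642-34 (adjusted p = 2.08e-07), the largest increase among the beta genes, and by 0.21 with CCF642 (adjusted p = 0.00522). PSMB6 was at 112 and 114 CPM with DMSO, 124 and 111 with CCF642 and 139 and 132 with CCF642-34. Its CCF642 libraries lay on either side of the DMSO libraries, and its CCF642-34 libraries lay above all others. It rose by 0.26 with CCF642-34 (adjusted p = 4.11e-05) and was at 0.057 with CCF642 (adjusted p = 0.36).

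PSMB10 takes the place of PSMB7 in the immunoproteasome, a form of the core that favours antigen peptides. Its CPM was 98.98 and 101 with DMSO, 102 and 93.9 with CCF642 and 117 and 107 with CCF642-34. DMSO and CCF642 overlapped, and CCF642-34 was higher by 0.16 (adjusted p = 0.0138), while the value with CCF642 was -0.033 (adjusted p = 0.632). Per kilobase of transcript, on the principal transcript of GENCODE 29, the mean DMSO levels of the catalytic genes were 133 CPM per kb for PSMB6, 82.2 for PSMB10, 60.4 for PSMB7 and 24.5 for PSMB5. PSMB5 thus had the lowest level of the 4, and the gaps between neighbours in this order exceeded the spread between the DMSO libraries.

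Among the beta genes with no cutting site, PSMB4 had the highest level per length of the 44 genes, 398 CPM per kb with DMSO. It read 382 and 386 CPM with DMSO, 470.2 and 449 with CCF642 and 484 and 487 with CCF642-34. Both treated groups were above DMSO and the highest values came with CCF642-34. The increase on the log2 scale was 0.34 with CCF642-34 (adjusted p = 3.01e-10) and 0.26 with CCF642 (adjusted p = 1.41e-07). PSMB3 and PSMB1 rose with CCF642-34 by 0.30 and 0.30. PSMB3 read 117 and 122 CPM with DMSO, 122 and 129 with CCF642 and 149 and 145 with CCF642-34, and only the CCF642-34 libraries stood clear of DMSO.

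PSMB2 had the smallest increase of the beta genes, from 190.4 and 196 CPM with DMSO to 213 and 214 with CCF642-34, with 189.8 and 199.5 under CCF642. DMSO and CCF642 overlapped, and the increase with CCF642-34 was 0.14 (adjusted p = 0.00589). The calls of PSMB10 and PSMB2 with CCF642-34 were lost without DMSO replicate 1, and that of PSMB10 also without CCF642-34 replicate 1. With 1 library left out their values lay between 0.092 and 0.23 and between 0.12 and 0.17. The calls of PSMB1 and PSMB7 with CCF642 were lost without CCF642 replicate 1, with values between 0.091 and 0.24 and between 0.10 and 0.31, and also without DMSO replicate 1 for PSMB1 and DMSO replicate 2 for PSMB7.

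Over the 15 core genes, 14 were higher and none lower with CCF642-34, and with CCF642 the counts were 8 and 1. With library size alone these became 12 higher and 0 lower, and 3 higher and 4 lower, so the split of the core with CCF642 turned with the scaling, while that with CCF642-34 did not. The median of the beta genes with CCF642 was -0.016 on that scale. The core genes' median log2 fold change was 0.30 with CCF642-34 and 0.16 with CCF642, and 0.21 and 0.031 with library size alone.

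The 19S particle had larger fold changes than the core, a difference that was not tested. All 20 of its genes were higher with CCF642-34 (median log2 fold change 0.49) and 18 were higher with CCF642 (median 0.40). None was lower. With library size alone, 17 and 16 were higher and 0 and 1 lower, with medians of 0.40 and 0.26. On that scale PSMD2 and PSMD9 with CCF642 were at -0.093 and -0.044, below zero.

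All 6 ATPases, which form the ring that unfolds substrates, were higher with both compounds, with medians of 0.53 with CCF642-34 and 0.46 with CCF642. PSMC6 was at 58.9 and 59.4 CPM with DMSO, 85.5 and 87.6 with CCF642 and 93.9 and 97.8 with CCF642-34. The groups were far apart compared with the spread inside them, and CCF642-34 was the highest. Its log2 fold change was 0.69 ± 0.058 with CCF642-34 (adjusted p = 2.05e-14) and 0.54 ± 0.058 with CCF642 (adjusted p = 2.26e-11).

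PSMC4 was at 114 and 126 CPM with DMSO, 199 and 199.9 with CCF642 and 193 and 186 with CCF642-34. Here the CCF642 libraries were slightly above those of CCF642-34, and both groups were well above DMSO. It rose by 0.66 ± 0.049 with CCF642-34 (adjusted p = 4.97e-16) and by 0.73 ± 0.049 with CCF642 (adjusted p = 7.21e-18). PSMC5 had the smallest increase with CCF642-34 in the ring, from 132 and 139 CPM with DMSO to 179 and 158, and 168 and 157 with CCF642. The treated libraries were all above DMSO and overlapped each other, with log2 fold changes of 0.31 (adjusted p = 1.57e-06) and 0.26 (adjusted p = 3.05e-05). PSMC1, PSMC2 and PSMC3 rose by 0.52, 0.54 and 0.34 with CCF642-34, and PSMC1 has 13 annotated pseudogene copies, so its reads are uncertain.

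The 14 non-ATPase genes were all higher with CCF642-34 (median 0.47), and 12 were higher with CCF642 (median 0.37). PSMD12, a scaffold subunit of the 19S lid whose promoter element is shown above, read 76.1 and 76.1 CPM with DMSO, 138 and 135 with CCF642 and 126 and 136 with CCF642-34. Treated libraries were all far above DMSO, and the compounds overlapped. Its log2 fold change was 0.78 ± 0.053 with CCF642-34 (adjusted p = 1.61e-17) and 0.84 ± 0.053 with CCF642 (adjusted p = 6.93e-19).

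PSMD14 is the lid enzyme that cuts ubiquitin chains off the substrate. It rose from 154 and 148 CPM with DMSO to 204 and 208 with CCF642 and 214 and 227 with CCF642-34. All treated libraries were above DMSO, and those of CCF642-34 were the highest. The log2 fold changes were 0.54 ± 0.046 (adjusted p = 3.39e-14) with CCF642-34 and 0.45 ± 0.046 (adjusted p = 9.13e-12) with CCF642. PSMD7, the partner of PSMD14, rose by 0.52 and 0.38. Other lid genes moved alike, with PSMD6 at 0.50 and 0.53, PSMD13 at 0.48 and 0.41, and PSMD11 at 0.46 and 0.41, the value with CCF642-34 first. PSMD3 and PSMD8, the remaining lid genes of the list, rose by 0.38 and 0.38 with CCF642-34 and by 0.29 and 0.27 with CCF642.

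Of the genes for ubiquitin receptors and large scaffolds of the base, PSMD4 rose by 0.53 with CCF642-34 and 0.35 with CCF642. PSMD1 and PSMD2, the largest subunits, had the smallest changes of the 14 genes with CCF642-34. PSMD2 was at 590.2 and 602 CPM with DMSO, 619 and 608 with CCF642 and 659 and 668 with CCF642-34. Its CCF642 libraries were just above DMSO and its CCF642-34 libraries clear of both. It rose by 0.16 with CCF642-34 (adjusted p = 0.000352) and was at 0.041 with CCF642 (adjusted p = 0.343). PSMD1 rose by 0.16 and 0.20, and both calls were lost with library size alone, at 0.073 and 0.070. The call with CCF642-34 was also lost without DMSO replicate 2, with values between 0.14 and 0.19 when 1 library was left out.

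PSMD5, PSMD9 and PSMD10 encode chaperones that hold ATPases during assembly and leave the finished particle. PSMD10 was at 48.9 and 48.2 CPM with DMSO, 57.2 and 53.7 with CCF642 and 69.3 and 72.8 with CCF642-34, and the 3 groups did not overlap. It rose by 0.54 (adjusted p = 8.5e-10) with CCF642-34 and by 0.19 (adjusted p = 0.0108) with CCF642, and the latter call was lost without DMSO replicate 2 or CCF642 replicate 1, with values between 0.14 and 0.23. PSMD5 rose by 0.38 and 0.50. PSMD9 was the weakest of the 3, at 28.2 and 25.9 CPM with DMSO, 31.6 and 26.1 with CCF642 and 31.4 and 31.9 with CCF642-34. The second CCF642 library lay between the DMSO libraries. Its increase of 0.22 with CCF642-34 (adjusted p = 0.0312) was lost without DMSO replicate 2 or either CCF642-34 library, with values between 0.16 and 0.28.

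The activators were mixed. PSME1 and PSME2 form the interferon-inducible cap that opens the core for peptide production, PSME3 forms a nuclear cap, PSME4 is a large single-chain nuclear activator and PSMF1 encodes an inhibitor of the isolated core. With CCF642-34, 2 of these 5 genes were higher and 1 lower, where 29.7% and 27.9% of all genes were. With CCF642, 2 were higher and 3 lower, where 31.8% and 31.3% of all genes were.

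PSME3 was at 270.5 and 264 CPM with DMSO, 218 and 215 with CCF642 and 219 and 223 with CCF642-34. All treated libraries lay below DMSO. It fell with both compounds, with log2 fold changes of -0.28 ± 0.043 (adjusted p = 3.99e-07) for CCF642-34 and -0.30 ± 0.043 (adjusted p = 4.39e-08) for CCF642. PSME2 read 66.2 and 67.3 CPM with DMSO, 53.9 and 54.9 with CCF642 and 63.3 and 62.6 with CCF642-34, so CCF642 gave the lowest values. Its decrease with CCF642 was -0.29 on the log2 scale (adjusted p = 7.54e-05), and its value with CCF642-34 was -0.084 (adjusted p = 0.254). PSME1 read 107 and 108 CPM with DMSO, 100.4 and 98.3 with CCF642 and 105 and 106 with CCF642-34, with log2 fold changes of -0.12 (adjusted p = 0.0492) for CCF642 and -0.029 (adjusted p = 0.657) for CCF642-34. Its call with CCF642 was at the edge of the threshold and was lost in 13 of 18 alternative settings, leaving out either DMSO library, CCF642 replicate 2 or either CCF642-34 library among them, with values between -0.13 and -0.10 when 1 library was left out.

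PSME4 rose, from 177 and 177 CPM with DMSO to 233 and 262 with CCF642 and 210.2 and 220.0 with CCF642-34. Unlike most of the genes, its highest libraries were those of CCF642. The log2 fold changes were 0.48 ± 0.048 (adjusted p = 3.27e-12) with CCF642 and 0.28 ± 0.048 (adjusted p = 2.18e-06) with CCF642-34. PSMF1 was at 110.5 and 103 CPM with DMSO, 113 and 121 with CCF642 and 132 and 129 with CCF642-34, and the libraries of the 3 groups did not overlap. It rose by 0.29 (adjusted p = 6.56e-06) with CCF642-34 and by 0.13 (adjusted p = 0.031) with CCF642, and the latter call was lost without DMSO replicate 2 or CCF642 replicate 2, with values between 0.078 and 0.18, and the value was -0.0038 with library size alone.

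The core assembly chaperones did not follow the subunits. PSMG1 and PSMG2 pair to build the alpha ring, as do PSMG3 and PSMG4. PSMG4 fell the most, from 16.7 and 16.2 CPM with DMSO to 12.4 and 8.003 with CCF642 and 14.7 and 11.8 with CCF642-34. All treated libraries were below DMSO, and replicates of a compound lay further apart than for any other of the 44 genes. The log2 fold change was -0.67 ± 0.13 (adjusted p = 2.22e-05) with CCF642 and -0.30 ± 0.13 (adjusted p = 0.047) with CCF642-34. The call with CCF642-34 was lost without either DMSO library or CCF642-34 replicate 2, with values between -0.45 and -0.16. With CCF642 the call held with any 1 library left out, with values between -0.96 and -0.38.

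PSMG3 was at 25.3 and 23.9 CPM with DMSO, 20.5 and 17.7 with CCF642 and 22.6 and 20.5 with CCF642-34, all treated libraries being below DMSO. It fell with CCF642 (-0.35 ± 0.10, adjusted p = 0.00151), and its value with CCF642-34 was -0.18 (adjusted p = 0.101). PSMG3 overlaps an antisense gene. Exons of 15 of the 44 genes overlap those of another gene, PSMC5, PSMD9, PSME1, PSME2 and PSME4 among them, and whether reads were counted by strand is not given in the sources used here. PSMG2 passed the threshold with neither compound, at 57.1 and 57.2 CPM with DMSO, 57.2 and 55.6 with CCF642 and 62.6 and 59.3 with CCF642-34. PSMG1 read 67.4 and 67.2 CPM, 67.2 and 69.5 CPM and 73.1 and 77.3 CPM in the same order. It rose by 0.16 with CCF642-34 (adjusted p = 0.024), a call lost without either DMSO library or CCF642-34 replicate 2, with values between 0.12 and 0.20.

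**Figure D2:**
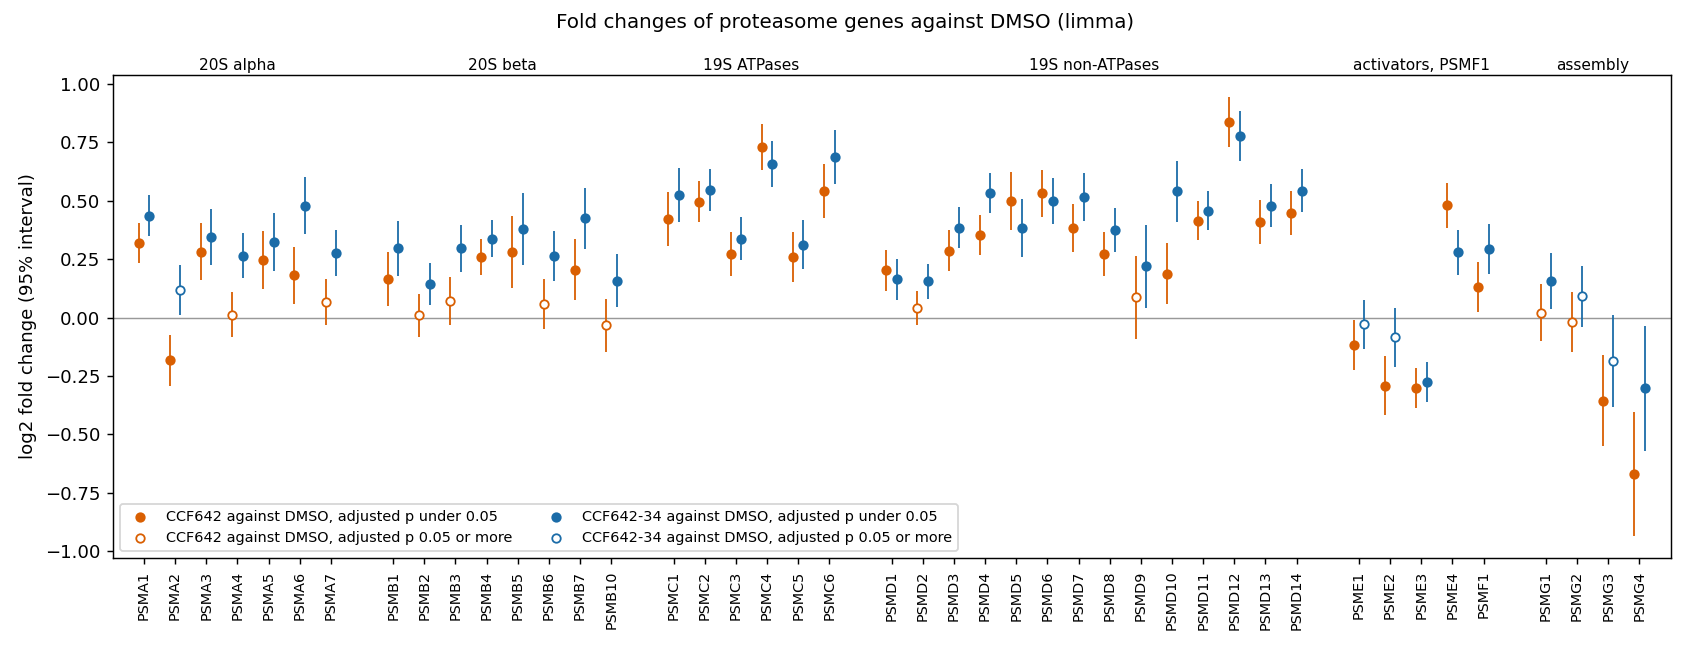
Log2 fold change against DMSO of the 44 genes, with 95% intervals from limma, for CCF642 in orange and CCF642-34 in blue. Filled points passed an adjusted p of 0.05 and open points did not. The 19S genes lie above zero with both compounds, from 0.041 for PSMD2 with CCF642 (where PSMD2 and PSMD9 were below zero with library size alone) to 0.84 for PSMD12 with CCF642, and the called decreases are those of PSMA2, PSME1, PSME2, PSME3, PSMG3 and PSMG4.

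The compounds were then compared directly, at the same dose and time, which asks whether they act differently on these genes. CCF642 is the parent compound and CCF642-34 its analogue. CCF642-34 gave higher values than CCF642 for 18 of the 44 genes and lower for 1, and 25 did not pass, where 15.9% of all genes were higher and 17.4% lower. The median log2 difference was 0.11, beside 0.0093 over all genes. Both CCF642-34 libraries lay above both CCF642 libraries for 34 of the 44 genes, which held for 32.4% of all genes. Differences of at least 25% were rare, with 2 of the 44 genes called higher and 0 called lower by that factor, where 4.57% and 7.4% of all genes were. With library size alone, 27 of the 44 were higher and 1 lower, where 21.8% and 13.5% of all genes were.

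A larger share of the core than of the 19S particle passed in this comparison, a contrast that was not tested. Of the 15 core genes 10 were higher with CCF642-34 than with CCF642, with a median of 0.19, and of the 20 genes of the 19S particle 5 were, with a median of 0.083. After the correction for transcript length and GC content, added after the values had been seen, the core had 4 higher with a median of 0.076, and the 19S particle 2 higher and 2 lower with a median of 0.043. The 3 largest differences were those of PSMG4, PSMD10 and PSMA2, whose values in each library are given above. PSMG4 differed by 0.37 ± 0.13 (adjusted p = 0.0284), PSMD10 by 0.35 ± 0.065 (adjusted p = 2.89e-05) and PSMA2 by 0.30 ± 0.054 (adjusted p = 1.64e-05). For PSMD10 and PSMA2 the libraries of the compounds did not overlap. The gap was wide beside the spread of the replicates for PSMD10 only. For PSMA2 it lay between 129 CPM with CCF642 and 147 with CCF642-34, close in size to that between the CCF642 libraries, 129 and 113. For PSMG4 the lower CCF642-34 library was below the higher CCF642 library, and the call was lost without CCF642 replicate 2 or CCF642-34 replicate 1, with values between 0.078 and 0.66.

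PSME4 was the gene that was lower with CCF642-34 than with CCF642, by a log2 difference of -0.20 ± 0.048 (adjusted p = 0.000946), and that call was lost without CCF642 replicate 2, with values between -0.29 and -0.11. Among the catalytic genes, PSMB6, PSMB7 and PSMB10 were higher with CCF642-34 by 0.21, 0.22 and 0.19, all with adjusted p between 0.0023 and 0.00677. PSMB5 differed by 0.10 (95% interval -0.055 to 0.25, adjusted p = 0.341) and did not pass. PSMC6, with the second largest increase by CCF642-34 over DMSO, was higher with CCF642-34 by 0.15 (adjusted p = 0.0454). PSMD12 and PSMC4, the genes with the largest increases by CCF642, did not pass, with -0.059 (interval -0.17 to 0.047) for PSMD12 and -0.075 (interval -0.17 to 0.025) for PSMC4, so these intervals allow differences of up to 0.17 in size.

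These direct differences were the least firm of the results. Only 6 of the 19 calls held whichever library was left out, those of PSMA2, PSMA4, PSMA6, PSMB3, PSMD4 and PSMD10, and the number of genes higher dropped to 8 without CCF642-34 replicate 1. A gene-wise linear model, which takes each gene's spread from its own 6 libraries, called 1 higher, PSME2, and 0 lower. Over all 11048 genes it called 242 higher and 497 lower. Of the 44 genes, 14 had an unadjusted p under 0.05 in that model, all higher with CCF642-34. The share of all genes under that unadjusted limit was not computed, so the count cannot be read as particular to these genes.

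The difference also moved with transcript length. Among the 17 proteasome genes with transcripts under 1.5 kb the median log2 difference was 0.19 and 10 were higher, among 15 genes of 1.5 to 3 kb it was 0.11 and 5 were higher, and among 12 genes of 3 kb or more it was 0.045 and 3 were higher. Over all genes of any length the median was 0.0093 and 15.9% were higher. All genes were not split by length for this comparison, so the trend cannot be read as particular to the proteasome genes. The replicates of a group differed by length too. In CCF642, replicate 1 minus replicate 2 had a median of 0.079 over 300 genes under 1 kb and -0.036 over 2346 genes of 5 kb or more, and 31 of the 44 proteasome genes were higher in replicate 1. After the correction for transcript length and GC content, CCF642-34 exceeded CCF642 in 7 genes and fell short of it in 3, where 16.1% and 15.7% of all genes did. It ended 11 of the 19 calls between the compounds, those of PSMA1, PSMA7, PSMB3, PSMB6, PSMB7, PSMB10, PSMC6, PSMD4, PSMD7, PSME2 and PSMG4. The part of length in the difference between the compounds was not tested beyond this correction. Against DMSO the corrected counts were 33 higher and 5 lower with CCF642-34 (27.5% and 31.6% of all genes), and 30 and 5 with CCF642 (29.5% and 35.7%).

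**Figure D3:**
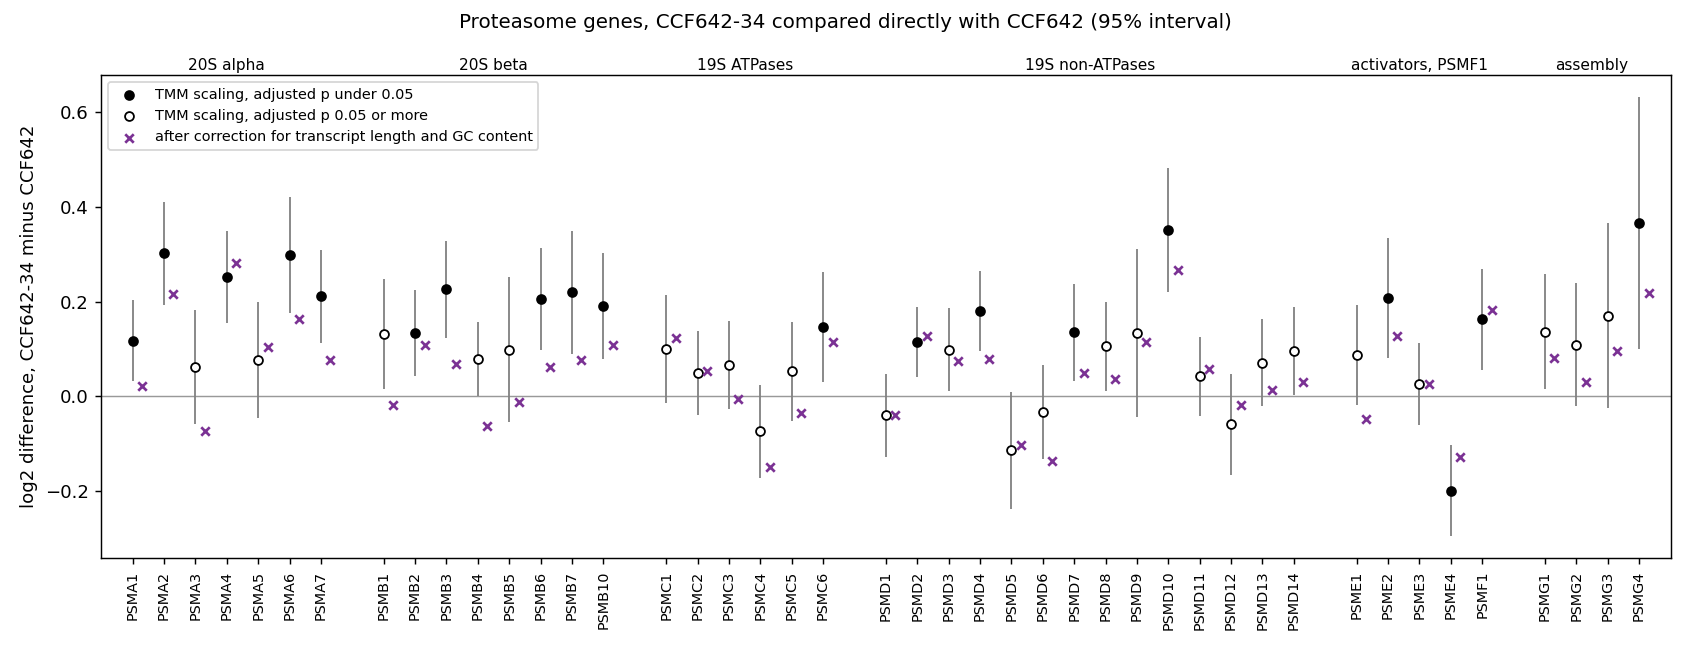
Log2 difference of CCF642-34 minus CCF642 for each of the 44 genes with its 95% interval from limma. Filled circles passed an adjusted p of 0.05, open circles did not, and purple crosses give the difference after correction for transcript length and GC content. The difference was 0.35 for PSMD10, 0.30 for PSMA2 and PSMA6, and -0.20 for PSME4, and most crosses lie nearer to zero than their circles.

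Genes that work with the proteasome under other symbols were taken from lists of general knowledge. Of 17 such genes for bound proteins and assembly factors, 13 were higher and 2 lower with CCF642-34, and 13 and 2 with CCF642. Beside these and the lists that follow, 29.7% of all genes were higher and 27.9% lower with CCF642-34, and 31.8% and 31.3% with CCF642. With library size alone, 11 of the 17 were higher and 2 lower with CCF642-34, and 8 and 3 with CCF642, where the shares of all genes were 22.6% and 36.0%, and 22.9% and 42.9%. ADRM1, the ubiquitin receptor of the 19S base that has no PSM symbol, was at 219 and 227 CPM with DMSO, 347 and 348 with CCF642 and 348 and 342 with CCF642-34. The treated libraries were close to each other and none overlapped DMSO. The log2 fold change was 0.63 with CCF642-34 (adjusted p = 5.53e-18) and 0.64 with CCF642 (adjusted p = 1.95e-18), in the range of the ATPases. POMP, which finishes core assembly, was at 49.3 and 46.7 CPM, 55.2 and 44.4 CPM and 56.2 and 56.9 CPM for DMSO, CCF642 and CCF642-34. It rose with CCF642-34 by 0.23 (adjusted p = 0.0069) and was at 0.044 with CCF642 (adjusted p = 0.625).

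ZFAND2A, a stress-induced protein that binds the proteasome, had the largest increase of that list. It went from 24.3 and 23.97 CPM with DMSO to 82.5 and 87.8 with CCF642 and 71.4 and 70.6 with CCF642-34, with log2 fold changes of 1.78 and 1.52. The largest decrease was that of UBQLN4, which shuttles ubiquitin-tagged proteins to the proteasome, with -0.60 for CCF642-34 and -0.49 for CCF642.

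NFE2L1 itself, the transcription factor of the proteasome genes, was at 383 and 382 CPM with DMSO, 890.0 and 837 with CCF642 and 869.9 and 859 with CCF642-34. The treated libraries were far above DMSO and overlapped each other. Its log2 fold change was 1.17 ± 0.038 with CCF642-34 (adjusted p = 2.39e-30) and 1.17 ± 0.038 with CCF642 (adjusted p = 1.66e-30). Of 12 genes for NFE2L1, its processing and its partners, 9 were higher and 2 lower with either compound, and with library size alone 9 and 3 with CCF642-34 and 8 and 3 with CCF642. The partner gene MAFF rose the most, by 2.21 with CCF642-34 and 2.53 with CCF642, and the related MAFK fell the most, by a log2 fold change of -0.50 and -0.54.

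Of 5 genes for ubiquitin and its activating enzymes, 2 were higher with CCF642-34 and 4 with CCF642, and none was lower. Scaled by library size alone, 2 were higher and 1 lower with either compound. UBB, a polyubiquitin gene, rose by 0.82 and 0.88 with CCF642-34 and CCF642, and RPS27A, which encodes ubiquitin fused to a ribosomal protein, was at -0.036 and -0.049 and did not pass (adjusted p = 0.646 and 0.506). Ubiquitin genes share coding sequence, so the split of reads between them is uncertain.

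Of 11 genes of class I antigen presentation, which takes its peptides from the proteasome, 4 were higher and 5 lower with CCF642-34, and 1 was higher and 6 lower with CCF642. On the scale of library size alone, 2 were higher and 5 lower with CCF642-34, and 1 was higher and 10 lower with CCF642. IRF1, an activator of immunoproteasome genes, rose by 0.82 with CCF642-34 and 0.82 with CCF642. NLRC5, the activator of class I genes, was at -0.52 and -0.47, lower with both (adjusted p = 0.000189 and 0.000474).

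Other complexes, with fewer genes than the 20S core or the 19S particle, gave a measure of how other multi-subunit machines moved. The COP9 signalosome, which shares its plan with the 19S lid, had 5 of 9 genes higher and 0 lower with CCF642-34, and 4 and 1 with the parent compound, with medians of 0.19 and 0.079. COPS2 had its largest increase, 0.49 with CCF642-34 and 0.42 with CCF642. The CCT chaperonin had 3 of 8 higher and 2 lower with CCF642-34, and 3 and 1 with the parent compound, with medians of 0.019 and 0.025 and a range from -0.17 for CCT6A to 0.32 for CCT8 with CCF642-34. The translation factor eIF3 had 10 of 12 higher and 1 lower with CCF642-34, and 11 and 1 with the parent compound, with medians of 0.21 and 0.17, from -0.48 for EIF3B to 0.41 for EIF3G with CCF642-34. The medians of the 19S particle, 0.49 and 0.40, were larger than those of the 3 complexes, and those of the 20S core, 0.30 and 0.16, were near that of eIF3. With library size alone the medians were 0.10 and -0.052 for COP9, -0.070 and -0.11 for CCT, and 0.12 and 0.040 for eIF3, so the direction of COP9 with CCF642 and of CCT with both turned with the scaling. The numbers higher and lower were then 4 and 0 with CCF642-34 and 1 and 3 with CCF642 for COP9, 2 and 3 and 2 and 4 for CCT, and 8 and 1 and 4 and 1 for eIF3. The difference between the complexes was not tested.

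**Figure D4:**
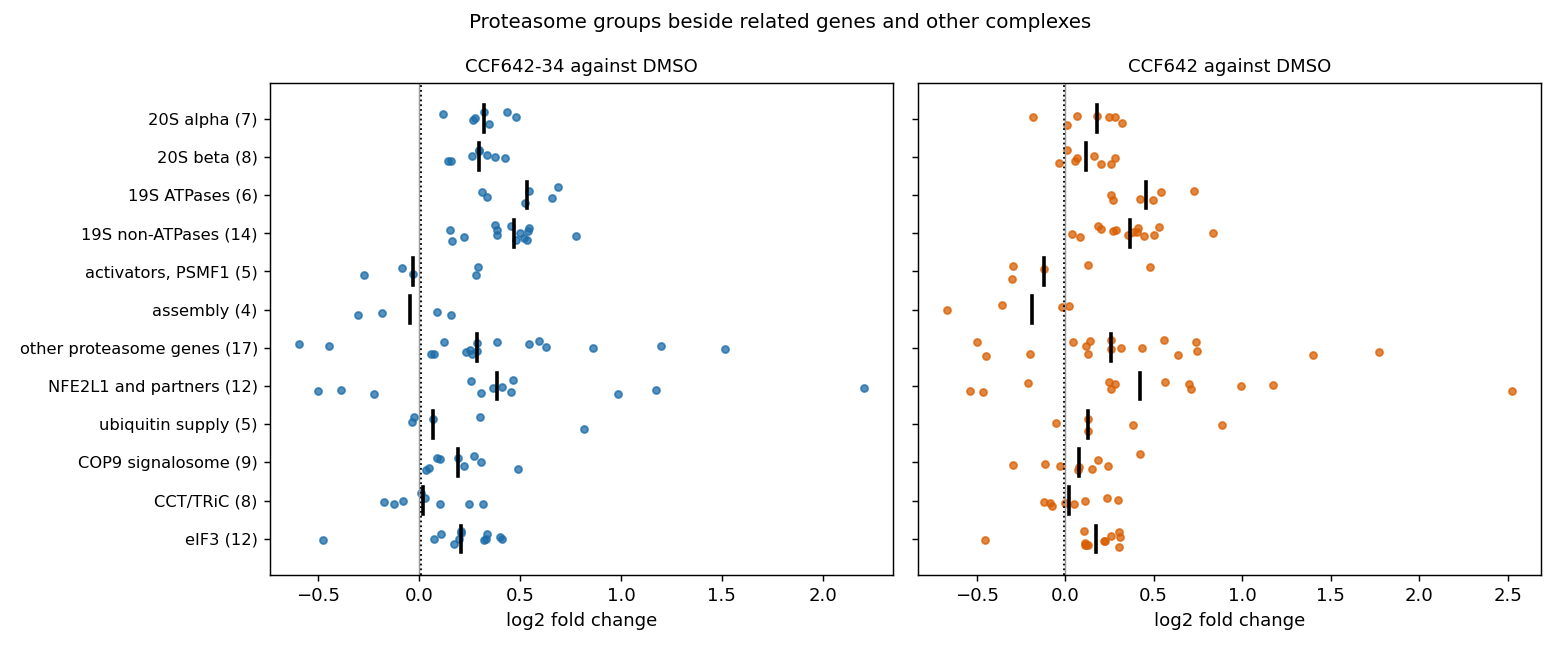
Log2 fold change against DMSO of each gene (points) by proteasome group and for 6 other gene lists, with the number of genes in brackets, for CCF642-34 on the left and CCF642 on the right. Black bars mark the median of a list and the dotted line the median of all genes. The 19S ATPases have the highest median of the proteasome groups, 0.53 with CCF642-34 and 0.46 with CCF642, and the activators and assembly genes have medians below zero with both compounds.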

How the data were processed

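MM1.S cells in 3 groups of 2 libraries were sequenced as polyA RNA after 6 h. The authors deposited CPM values, which set the reads of each gene against the library's total, for 11048 symbols. The unit was read from the values, which sum to 99.9% of one common total in every library. The submitters' processing notes name STAR, edgeR 3.24.3, limma 3.38.3 and hg19, while their roles, the counting tool and the annotation are not given in the sources used here. No listed gene stays under 1.50 CPM in all libraries. From a table of the whole series only the gene symbols were read.

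TMM factors (edgeR 4.0.16) rescaled the CPM, and limma 3.58.1 in R 4.3.3 fitted log2(CPM + 1) of the 3 groups together with a trended prior (3 residual and 42.9 prior degrees of freedom), with no further filter on low values and no replicate block. All low values were whole multiples of a step (100.0% of values within 0.02 of a whole read), so reads were recovered for count models. On those reads edgeR's quasi-likelihood test called 6440 genes with CCF642-34, 6932 with CCF642 and 3724 between the compounds, against 6362, 6974 and 3685 here. Tested on simulated reads for CCF642-34 against DMSO over 11048 genes, 84 of 100 genes changed 1.25-fold, 100 of 100 changed 1.5-fold and 11 of 10848 unchanged genes were called. The biological coefficient of variation was 3.92%. Squared differences between replicates were 2.30 to 4.64 times those of counting error, so no pair was 1 library deposited again.

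Values in every library were given for the catalytic beta genes, PSME1, PSME2, the 2 largest and the 1 smallest change with CCF642-34 in each group, every gene lower than DMSO and the 3 largest differences between the compounds. For other lists, the largest increase and decrease with CCF642-34 and a few fixed genes were named. The remaining proteasome genes were named within their group. One gene of another list is not reported here, and the counts and the plot of that list leave it out. The genes, lists, tests and alternatives were chosen with earlier results of these data known. Transcript lengths, GC content, pseudogenes and overlaps came from GENCODE 29 (GRCh38), with lengths for 11016 of 11048 symbols, and promoters from RefSeq (GRCh38.p14). These builds differ from hg19, so no coordinates were joined to the counts. The alternatives were library size alone, DESeq2's size factors, pseudocounts of 0.1 and 4, a mean CPM of at least 5, edgeR, DESeq2 1.42.0 and limma-voom on recovered reads, a gene-wise linear model, only the 2 groups compared, a replicate block, each library left out and, added after the values were seen, a correction for length and GC content.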

Additional observations from a re-analysis of the deposited data

Results flagged for a closer look

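The effects of the compounds differed for 19 of the 44 proteasome genes and for PSMC3IP, where 33.4% of all genes differed. The test was the direct comparison of CCF642-34 against CCF642 (limma, adjusted p under 0.05 over all genes). Of the 19 calls, 0 held in all alternatives, and 11 were lost after the correction for transcript length and GC content. PSMC3IP, which encodes a protein of meiotic recombination and is no subunit, was at 19.03 and 16.9 CPM with DMSO, 19.6 and 18.8 with CCF642 and 13.3 and 13.3 with CCF642-34. Only the CCF642-34 libraries were low, with a log2 difference of -0.50 (adjusted p = 0.000208) between the compounds. PSME4 was the proteasome gene lower with CCF642-34 than with CCF642 (-0.20).

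The other differences were all higher with CCF642-34. They were 0.37 for PSMG4, 0.35 for PSMD10, 0.30 for PSMA2, 0.30 for PSMA6, 0.25 for PSMA4, 0.23 for PSMB3, 0.22 for PSMB7, 0.21 for PSMA7, 0.21 for PSME2 and 0.21 for PSMB6. Smaller ones were 0.19 for PSMB10, 0.18 for PSMD4, 0.16 for PSMF1, 0.15 for PSMC6, 0.13 for PSMD7, 0.13 for PSMB2, 0.12 for PSMA1 and 0.11 for PSMD2. With 2 libraries per group no test for a library that stands apart could be made.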

How the results depend on the processing

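With CCF642-34, 26 of the 39 calls against DMSO held in all 18 alternatives, with CCF642 21 of 34, and between the compounds 0 of 19. For CCF642-34 against DMSO, the number lower was 5 with library size alone, 1 with a pseudocount of 0.1, 1 with DESeq2 and 5 with the length and GC correction, and the median was 0.24 with library size alone and 0.26 with that correction. For CCF642, the number lower was 11 with library size alone and 3 with the gene-wise linear model. The median was 0.094 with library size alone, where PSMA4 (-0.12), PSMB2 (-0.12), PSMD2 (-0.093) and PSMF1 (-0.0038) were on the other side of zero. So were PSMA7 (-0.068), PSMB3 (-0.063), PSMB6 (-0.076), PSMD9 (-0.044) and PSMG1 (-0.11), which were called on neither scale. The gene-wise model ended 12 of the 39 calls with CCF642-34 and 10 of the 34 with CCF642. Between the compounds, that model gave 1 higher and 0 lower, where it called 242 and 497 of all 11048 genes. The length and GC correction gave 7 and 3 with a median of 0.059. The cause of these shifts was not tested. With each library left out in turn, the counts higher and lower were 34 to 38 and 1 to 2 with CCF642-34, 24 to 30 and 4 to 6 with CCF642, and 8 to 20 and 0 to 1 between the compounds, and the medians ran from 0.32 to 0.35, 0.20 to 0.29 and 0.075 to 0.13. The lower end of these counts came without either DMSO library or CCF642-34 replicate 2 for the number lower with CCF642-34, without CCF642-34 replicate 1 for the number higher between the compounds, and without CCF642 replicate 2 for the number lower between them. Same-numbered libraries did not deviate together (correlations of -0.0089, -0.056 and 0.047 across genes), so no shift shared by number was seen. Whether same-numbered libraries were prepared together is not given in the sources used here. With a replicate block, 38 were higher and 2 lower with CCF642-34, 28 and 5 with CCF642, and 18 and 1 between the compounds, with medians of 0.33, 0.23 and 0.11. In 54 cases a value that was called in neither setting changed sign. The lowest gene had 173 reads in a library, and 2 libraries per group limit every interval.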

Other observations

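Subunits that stand in equal number in the finished particle differed widely in mRNA level. Per kilobase of the principal transcript, mean DMSO levels in the core ran from 17 CPM per kb for PSMA5 to 398 for PSMB4, and in the ATPase ring from 16.5 for PSMC1 to 105 for PSMC3. PSMD9, a chaperone that leaves the finished particle, had the lowest level of the 44 genes, 9.71. The transcript used for PSMA5 is 3729 bases long and that for PSMC1 4448, so the order depends on which transcripts the cells use, which was not analysed here. PSMC1 also has 13 annotated pseudogene copies, so its level is uncertain.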
